A study of Mus musculus with 8 samples.

Results

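The residual proliferative foci examined here are small square areas of mouse brain, in sections given CpG-STAT3ASO, that still held many transcripts of the proliferation genes Mki67 and Birc5. Each section was divided into square bins of 180 pixels, and bins holding 5 or more gene molecules were kept as tissue. A tissue bin was taken as a focus when it held at least 25 molecules of Mki67 and Birc5 together. In the 4 sections with CpG-STAT3ASO this rule took 1229 of 35299 tissue bins, out of 69615 tissue bins in all 8 sections. The same rule took 13076 bins in the 4 sections without CpG-STAT3ASO, of which 6017 lay in PBS sections and 7059 in anti-PD1 sections. They are called comparison bins below. Because measured values of Mki67 and Birc5 chose the bins, the number of bins and the levels of these 2 genes are described without a test.

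The sections came from the hemispheres of mice whose brains had been implanted with GL261, a mouse glioma cell line, and transcripts of a panel of 100 genes were located by single-molecule fluorescence in situ hybridization. All mice were treated into the brain 4 times and killed on day 21, and 2 sections were made for each of 4 treatments. PBS sections had no agent, anti-PD1 sections an antibody against the checkpoint receptor PD-1, CpG-STAT3ASO sections an oligonucleotide that joins a CpG motif to an antisense sequence against Stat3, and combination sections had both agents. The labels do not say whether the sections of a treatment came from separate animals, so p-values measure the spread between these sections only. All groups carry the same implanted tumour, and no section of a brain without tumour was used. Chosen bins reach the edge of the imaged area in the PBS and anti-PD1 sections, so a patch there can run on beyond the image.

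Mki67 encodes a nuclear protein of cycling cells, Birc5 encodes survivin, which acts in chromosome segregation and in the inhibition of cell death, and Rrm2 encodes a subunit of ribonucleotide reductase, which supplies deoxynucleotides for DNA synthesis. Glioma cells cycle, but so do activated T cells and myeloid cells that enter an inflamed brain, and none of these 3 genes tells the cell types apart. CpG motifs are ligands of TLR9, an endosomal receptor of myeloid cells and B cells, and STAT3 is a transcription factor that restrains antitumour immunity in many of these cells. The panel has no marker of neurons, oligodendrocytes, astrocytes or endothelium among those looked for, and no gene that marks GL261 cells alone. A bin holds an area of tissue rather than a cell, and fewer cells of a type and less RNA per cell cannot be told apart in it.

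The foci were few and scattered. They numbered 213 and 304 in the CpG-STAT3ASO sections and 140 and 572 in the combination sections, which was 2.37, 3.56, 1.66 and 6.13% of the tissue bins there. In the other sections the chosen share of tissue was 29.1 and 42.6% (PBS) and 36.2 and 44.3% (anti-PD1). The foci formed 772 patches of touching bins, and 543 of these patches were a single bin. Bins with no chosen neighbour made up 58.2, 46.4, 62.1 and 33.4% of the foci in CpG-STAT3ASO 1, CpG-STAT3ASO 2, combination 1 and combination 2, and 0.633 to 0.964% of the comparison bins. The largest patch of foci had 7, 21, 4 and 12 bins in these sections, whereas 1 patch held 48.7% of the comparison bins in PBS 1 and 98 to 98.8% in PBS 2 and both anti-PD1 sections.

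**Figure D1:**
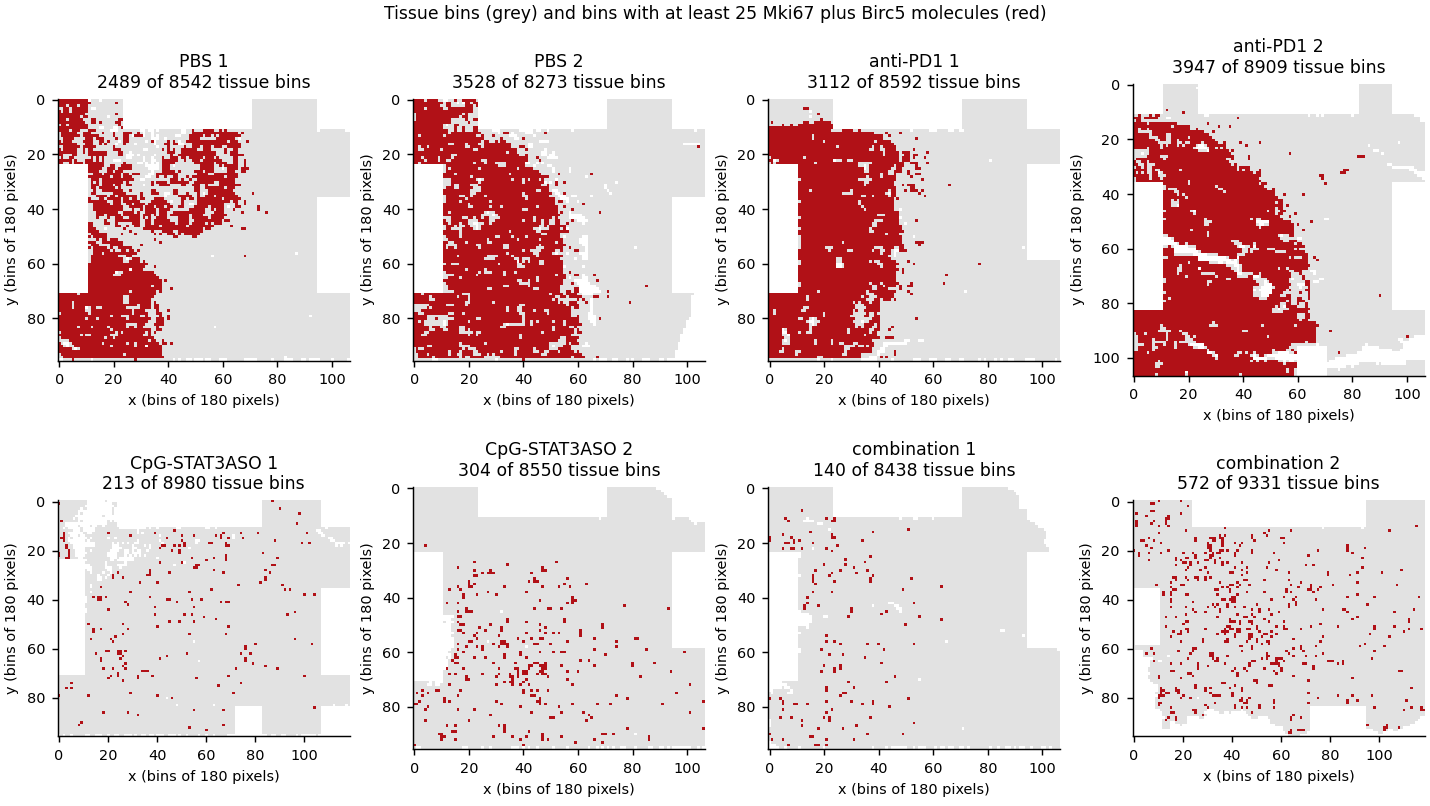
Position of the chosen bins in the 8 sections, with both axes in bins of 180 pixels, tissue bins in grey and bins with at least 25 Mki67 plus Birc5 molecules in red. The comparison bins fill large connected areas, and the 213, 304, 140 and 572 foci of the lower row are scattered over the tissue.

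The foci lay close to the lower limit that chose them. Of the 1229 foci, 859 held 25 to 49 Mki67 plus Birc5 molecules and 40 held 100 or more. The median focus held 37, 38, 39 and 38 of these molecules in CpG-STAT3ASO 1, CpG-STAT3ASO 2, combination 1 and combination 2, and the median comparison bin held 88 and 97 with PBS and 124 and 147 with anti-PD1. The foci held 38.5, 49.2, 46.1 and 50.1% of all Mki67 and Birc5 molecules of their sections, so that a large share of these transcripts lay outside them, while the comparison bins held 95 to 98.8%. The 2 genes were also present in other proportions. Mki67 molecules per Birc5 molecule were 6.64, 7.39, 6.94 and 7.06 in the foci and 3.18, 3.17, 3.53 and 3.32 in the comparison bins, in the section order used above, and the 2 ranges did not overlap. Comparison bins with no chosen neighbour lay between them, at 4.37, 4.54, 6.3 and 5.48.

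Bins just inside and just outside the limit held similar numbers of other molecules in 3 of 4 sections. In CpG-STAT3ASO 1, the 48 bins with 25 to 29 molecules held 346 molecules of the 98 other genes per bin, and the 88 bins with 20 to 24 held 318. In combination 2 these values were 597 in 131 bins and 573 in 162 bins. CpG-STAT3ASO 2 had 494 in 77 bins and 503 in 85 bins. Combination 1 was the exception, with 400 in 30 bins and 246 in 45 bins.

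The foci were poorer in transcripts than the comparison bins. A focus held on average 360, 544, 362 and 648 molecules of the 98 other genes in CpG-STAT3ASO 1, CpG-STAT3ASO 2, combination 1 and combination 2. A comparison bin held 1100 and 1543 with PBS and 1605 and 1207 with anti-PD1. The means were 479 ± 142 and 1364 ± 248 (SD, n = 4 sections each), and every section with CpG-STAT3ASO was below every section without it. The difference of -885 molecules per bin had p = 0.0286 in a two-sided exact permutation test over the 70 assignments of sections, which is the smallest p they can give. Bins with 25 to 49 Mki67 plus Birc5 molecules lay closer together, at 344, 492, 362 and 626 in the foci and 727, 1145, 1029 and 677 in the comparison bins. Bins with no chosen neighbour overlapped, at 344, 461, 341 and 597 in the foci and 423, 577, 561 and 348 in the comparison bins. These 2 subsets were not tested. Tissue bins that were not chosen held 178 to 400 such molecules in the sections with CpG-STAT3ASO and 188 to 243 in the others. The foci thus held 2.02, 2.01, 1.88 and 1.62 times the molecules of all tissue bins not chosen, and the comparison bins 5.64 to 7.14 times. Bins directly next to the foci held 203, 351, 233 and 462 such molecules. Those next to the comparison bins held 293 and 365 with PBS and 404 and 256 with anti-PD1.

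**Figure D2:**
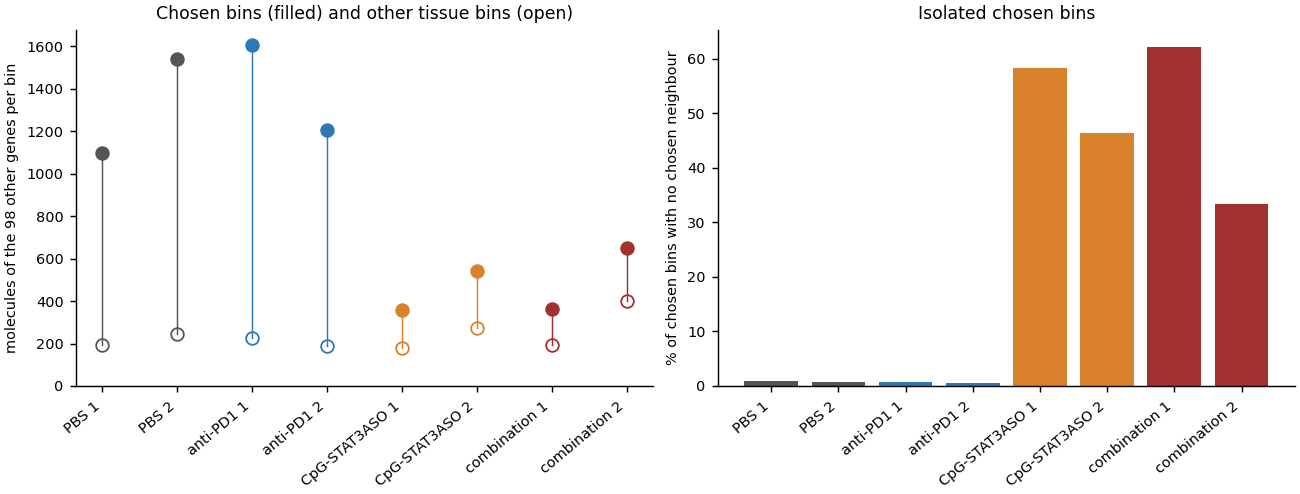
Left, molecules of the 98 genes other than Mki67 and Birc5 per chosen bin (filled) and per other tissue bin (open) in each section; right, the percentage of chosen bins with no chosen neighbour. The section means of the foci lie between 360 and 648 molecules, below the means of the comparison bins in every other section, and 33.4 to 62.1% of the foci are isolated.

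Gene values are given as shares, in molecules per 1000000 molecules of the 98 other genes (CPM), after all chosen bins of a section had been pooled. Shares depend on what else a bin holds, so each comparison was also made per bin and after median-of-ratios scaling, and a difference is called firm below when the same direction passed the test on all 3 scales. In the foci against the comparison bins, 41 of 96 genes tested passed an adjusted p of 0.05 by share, 36 higher and 5 lower (42.7%; limma with Benjamini-Hochberg adjustment over all genes). The median log2 difference of all genes was 0.77 by share, -0.73 per bin and -0.34 after median-of-ratios scaling. The split of higher to lower calls was 11 to 29 per bin and 21 to 16 after median-of-ratios scaling. All 5 genes lower by share were firm, and 11 of the 36 higher ones were. The calls came from both pairs of treatments: 32 of 96 genes passed for CpG-STAT3ASO against PBS (33.3%; 30 higher) and 27 of 96 for the combination against anti-PD1 (28.1%; 26 higher). The splits of higher to lower calls were 4 to 12 and 5 to 15 per bin, and 11 to 8 and 13 to 13 after median-of-ratios scaling. For CpG-STAT3ASO against PBS the count was 13 without PBS 2 and 19 without CpG-STAT3ASO 2. For the combination against anti-PD1 it was 12 without anti-PD1 2 and 18 without combination 1.

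Rrm2, the remaining proliferation gene of the panel, took no part in choosing the bins. Its share in the foci was 22901, 21957, 32868 and 13913 CPM in CpG-STAT3ASO 1, CpG-STAT3ASO 2, combination 1 and combination 2, and 9842, 6766, 11089 and 20125 in the comparison bins of PBS 1, PBS 2, anti-PD1 1 and anti-PD1 2. The ranges overlapped, and the log2 difference of 0.99 (SE 0.40) did not pass the test, with an adjusted p of 0.0609, while it was -0.55 per bin and -0.16 after median-of-ratios scaling. Without combination 2 it was 1.30 by share, with an adjusted p of 0.0152. Among bins with 25 to 49 Mki67 plus Birc5 molecules in both sets, it was 1.52 by share, with an adjusted p of 0.00122. In molecules per bin, Rrm2 stood at 8.25, 12, 11.9 and 9.02 in the foci and at 10.8, 10.4, 17.8 and 24.3 in the comparison bins. Of the foci, 21.1, 12.5, 16.4 and 10.1% held no Rrm2 molecule at all, and the 10% of foci richest in it held 34.9 to 54.5% of its molecules.

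The 5 genes that were lower in the foci were Gpnmb, Ly6a, Stat3, Tert and Cxcl10. Gpnmb, a transmembrane glycoprotein of macrophages and of many gliomas, had a share of 180251 and 65694 CPM with PBS, 101775 and 154895 with anti-PD1, 21233 and 6829 in the CpG-STAT3ASO sections and 32710 and 10889 in the combination sections. All sections with CpG-STAT3ASO lay below all others, and the means were 17915 ± 11578 and 125653 ± 51644 (SD, n = 4 each). The log2 difference was -2.95 (SE 0.51, limma adjusted p = 0.000247), and -4.49 per bin. Among bins matched at 25 to 49 Mki67 plus Birc5 molecules it was -2.73. In 40.8, 54.6, 32.9 and 34.8% of the foci no Gpnmb molecule was found, against 0.362 to 1.29% of the comparison bins. Comparison bins with no chosen neighbour, 22 to 26 a section, had 21793 and 6604 CPM with PBS and 1619 and 16194 with anti-PD1. A low Gpnmb share, within or below the range of the foci, was thus also found in isolated bins without CpG-STAT3ASO.

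Stat3, the target of the antisense part of the agent, stood at 65699 and 68033 CPM with PBS, 62637 and 79975 with anti-PD1, 31595 and 33277 in the CpG-STAT3ASO sections and 42910 and 23478 in the combination sections. The groups did not overlap, and the log2 difference was -1.10 (SE 0.37, adjusted p = 0.0274) by share and -2.64 per bin. The call by share was lost when CpG-STAT3ASO 1 (-1.08), CpG-STAT3ASO 2 (-1.12), PBS 1 (-1.11), PBS 2 (-1.09) or anti-PD1 2 (-1.01) was left out, at nearly the same size. It was also lost with a limit of 50 molecules (-1.01), bins of 360 pixels (-1.06) or patches of at least 4 bins (-1.24). Foci with no chosen neighbour had 31721, 35659, 43168 and 26256 CPM of Stat3. Such comparison bins had 62814, 37020, 46875 and 79936, so these ranges overlapped. By share, Vegfa and Il10, which STAT3 can induce, did not pass the test, and Il6, which acts upstream of STAT3, was higher. The Il6 difference was not firm. Il6 was not above the level of false-positive codes in the comparison bins, and the foci held only 9, 19, 9 and 57 of its molecules. Of the 4 measured genes on the list of STAT3 and its targets, 1 was higher and 1 lower, a share near the 42.7% called over all genes. The list had a median log2 difference of 0.08 beside 0.77 for all genes.

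Ly6a, the surface antigen Sca-1 of stem-like and interferon-exposed cells, was lower in the foci as well. Its share was 16528, 15944, 15053 and 18248 CPM in the foci and 41623, 67000, 55415 and 23981 in the comparison bins, without overlap. The log2 difference was -1.42 (SE 0.39, adjusted p = 0.00826), and the call was lost without PBS 2 (-1.25) or anti-PD1 1 (-1.12). Among bins with no chosen neighbour the Ly6a ranges overlapped, at 13648 to 20124 CPM in foci and 17082 to 38261 in comparison bins. Tert, the catalytic subunit of telomerase, differed by -1.08 (SE 0.41, adjusted p = 0.0412), and this call was lost when any section but anti-PD1 1 was left out, at -0.91 to -1.24. It was also lost among bins with 25 to 49 molecules (-0.91) and with a limit of 50 molecules (-0.96). Among bins with no chosen neighbour the Tert ranges overlapped, at 1000 to 1584 CPM in foci and 729 to 2071 in comparison bins. Cxcl10, an interferon-induced chemokine that attracts T cells, had 21155, 39986, 20005 and 38861 CPM in the foci and 59911, 117615, 83651 and 36881 in the comparison bins. These ranges overlapped through anti-PD1 2, and the log2 difference of -1.26 (SE 0.44, adjusted p = 0.0319) was lost without CpG-STAT3ASO 1 (-1.03), PBS 2 (-1.02), anti-PD1 1 (-0.97) or combination 1 (-1.02). The Cxcl10 call was also lost with a limit of 50 molecules (-0.95), bins of 360 pixels (-1.13) or patches of at least 4 bins (-1.04). Cd74, the invariant chain of antigen presentation, ranged from 55990 to 236854 CPM in the foci and from 210149 to 323828 in the comparison bins. Its log2 difference of -1.08 by share did not pass (adjusted p = 0.102). It passed without combination 2 (-1.60), per bin (-2.62) and after median-of-ratios scaling (-2.23). Of 6 measured interferon genes, Cxcl10 alone was lower and none higher, with a median of -0.40 beside 42.7% called and a median of 0.77 over all genes.

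Adgre1, Cd68 and Csf1r, genes of macrophages and microglia, were higher in the foci on all 3 scales. Adgre1, which encodes the macrophage surface protein F4/80, stood at 836 and 404 CPM with PBS, 630 and 463 with anti-PD1, 15759 and 7319 in the CpG-STAT3ASO sections and 11048 and 7982 in the combination sections. The means were 10527 ± 3847 and 583 ± 194 (SD, n = 4 each), an 18.0-fold difference without overlap. It was the largest increase by share among the 96 genes (log2 difference 4.16, SE 0.43, adjusted p = 6.6e-06), and 2.62 per bin. Only 9.27 to 22.9% of the foci lacked Adgre1, against 45.3 to 63.9% of the comparison bins. Cd68, a lysosomal protein of phagocytes, differed by 3.33 (SE 0.45, adjusted p = 3.65e-05) and was 1.79 per bin.

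Csf1r, the receptor through which macrophages and microglia receive survival signals, was 93522, 43600, 54648 and 37623 CPM in the foci and 3972 to 7674 in the comparison bins, a log2 difference of 3.19 (SE 0.41, adjusted p = 3.41e-05). Comparison bins with no chosen neighbour held 40430, 25080, 56509 and 69599 CPM of Csf1r, which overlapped the foci. Cd68, at 3869 to 15975 in such bins, overlapped through PBS 1, and Adgre1, at 1700 to 3156, stayed below the foci. Tmem119, a marker of resident microglia, differed by -0.03 (SE 0.47, adjusted p = 0.968) by share. It was -1.56 per bin, which passed, and 0.65 by share among bins with 25 to 49 molecules. It was 0.16 without CpG-STAT3ASO 2, 0.49 without PBS 2, 0.12 without anti-PD1 2 and 0.20 without combination 2. Its shares of 6492 to 17857 CPM in the foci lay within those of 3185 to 24142 in the comparison bins. Of 5 measured macrophage and monocyte genes, 3 were higher (Adgre1, Cd68 and Ccr2) and none was lower, beside 42.7% called over all genes. The list had a median log2 difference of 1.86 beside 0.77 for all genes. Ccr2, a receptor of recruited monocytes, was higher by share (1.86) and did not pass per bin (0.32, adjusted p = 0.659). Of 9 measured suppressive and scavenger genes, 3 were higher (Msr1, Spp1 and Fabp5) and 1, Gpnmb, lower, a share near the 42.7% called over all genes. Msr1 (0.28) and Spp1 (0.92) did not pass per bin, nor after median-of-ratios scaling.

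Marker sums were also taken for other cell types. The 5 macrophage and monocyte genes summed to 50653 to 80394 CPM in the foci and 17722 to 25205 in the comparison bins, and Csf1r with Tmem119 to 44115 to 111379 and 10758 to 29311. The 6 measured T cell genes summed to 15850 to 24435 and 2373 to 4568, but Cd4, which myeloid cells can also express, outnumbered Cd8a in all of the 4 treated sections except combination 2. In tissue bins not chosen, the T cell sum was 25144, 25363, 31487 and 17775 with CpG-STAT3ASO, above the foci except in combination 2. It was 14084 to 43100 in such bins without CpG-STAT3ASO. The macrophage and monocyte sum of such bins was 52770, 34329, 45527 and 61096 with CpG-STAT3ASO, below the foci of each section. The 8 cytotoxic and NK genes summed to 2112 to 8929 and 1402 to 2656, and the 6 dendritic cell genes to 20833 to 32430 and 23700 to 33096. Ly6g, of neutrophils, was at or below the level of false-positive codes in all sections. What part the cell makeup had in the gene differences was not tested.

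A further group was higher in the foci: genes that, in earlier results from these sections, had a low share in the dense tumour of PBS and anti-PD1 sections. That list was therefore chosen on these samples and is not independent evidence. Of its 10 genes, 9 were higher in the foci, with a median log2 difference of 3.24 beside 42.7% called and 0.77 over all genes. Sirpa, an inhibitory receptor of myeloid cells that is also abundant on neurons, stood at 97784, 64530, 87654 and 49161 CPM in the foci and at 7713, 2994, 4572 and 4941 in the comparison bins. The log2 difference was 3.92 (SE 0.41, adjusted p = 6.6e-06), and 2.38 per bin. Comparison bins with no chosen neighbour, 24 and 26 with PBS and 22 and 25 with anti-PD1, held 68336, 33618, 65738 and 85908 CPM of Sirpa. Their S1pr1 shares were 20116, 13007, 18054 and 33192. Both genes thus overlapped the foci in such bins, also without CpG-STAT3ASO. What part patch size had in the gene differences was not tested. S1pr1, a sphingosine 1-phosphate receptor of astrocytes, endothelium and lymphocytes, differed by 3.58 (SE 0.47, adjusted p = 3.65e-05), and Fabp5, a fatty acid binding protein, by 3.30 (SE 0.52, adjusted p = 0.000137), both firm.

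Cd4, the co-receptor of helper T cells, stood at 6608, 12480, 12015 and 2167 CPM in the foci and at 300 to 788 in the comparison bins, a log2 difference of 3.8 (SE 0.55, adjusted p = 6.29e-05). Cd3d, part of the T cell receptor complex, had only 78.2 to 418 CPM in the foci, so that Cd4 molecules far outnumbered Cd3d molecules there. Cd3d was above the level of false-positive codes in all 4 sections with CpG-STAT3ASO and in 1 of the others, and its difference of 1.74 did not pass (adjusted p = 0.0527). It passed without CpG-STAT3ASO 1 (2.28) or combination 1 (2.13).

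**Figure D3:**
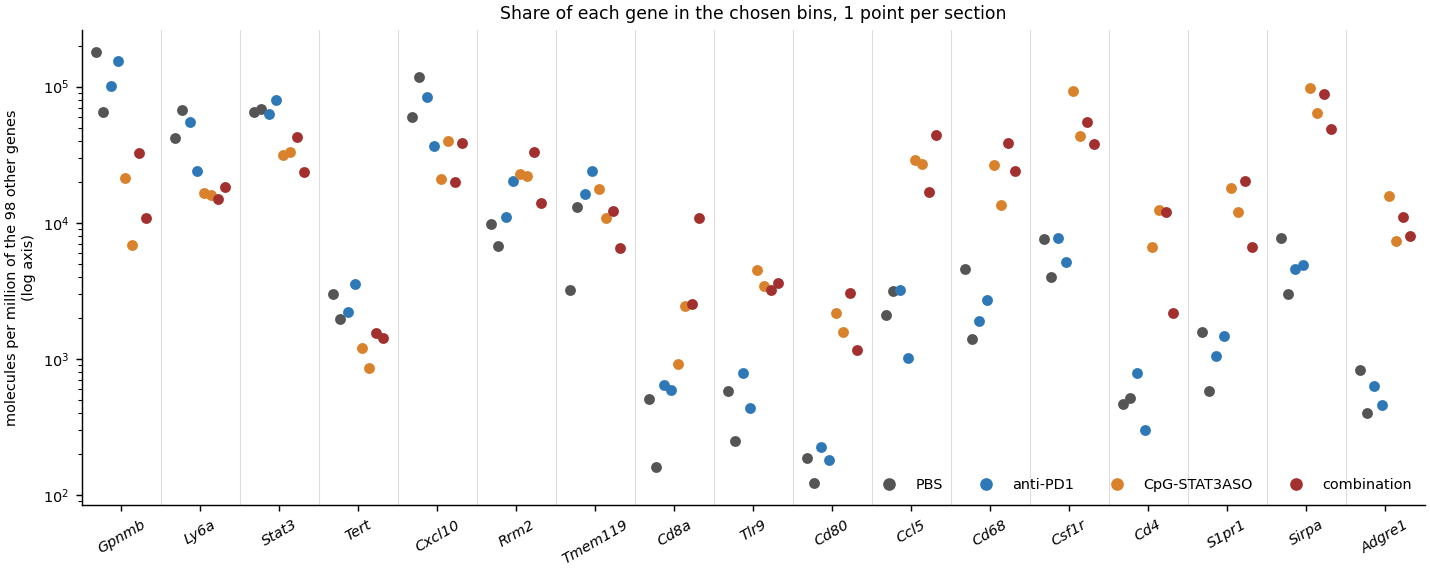
Share of 17 genes in the chosen bins, in CPM on a log axis, with 1 point per section and colours for the 4 treatments. Gpnmb, Ly6a, Stat3 and Tert lie lower in all sections with CpG-STAT3ASO, Cxcl10, Rrm2 and Tmem119 overlap, and the genes from Cd8a to Adgre1 lie higher without overlap.

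Ccl3, Ccl4, Ccl5, Ccl22 and Ccr2 were higher in the foci by share. Ccl5, which draws T cells and monocytes, stood at 28923, 27106, 16730 and 44473 CPM in the foci and at 2117, 3136, 3233 and 1021 in the comparison bins. Its log2 difference of 3.67 (SE 0.46, adjusted p = 3.41e-05) was firm, as was that of Ccl3 (3.05, SE 0.41, adjusted p = 3.65e-05), a chemokine of activated macrophages. Of 8 measured chemokines and chemokine receptors, 5 were higher and 1, Cxcl10, lower, with a median of 1.91 beside 42.7% called and 0.77 over all genes.

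Genes of the TLR and NF-kB list were higher in 5 of 7 cases and lower in none, with a median of 2.51 beside 42.7% called and 0.77 over all genes. Tlr9, the receptor for CpG DNA, stood at 4523, 3421, 3196 and 3631 CPM in the foci and at 585, 248, 788 and 440 in the comparison bins (log2 difference 2.95, SE 0.44, adjusted p = 9.33e-05), and was firm. Tnf and the IL-12 subunit gene Il12b differed by 2.65 and 2.74 by share but did not pass per bin. Il12b and Il6 were not above the level of false-positive codes in the comparison bins, so their folds are uncertain. The costimulatory ligand gene Cd80 differed by 3.41 (SE 0.49, adjusted p = 6.29e-05) and was firm, and Cd86 by 2.49 (SE 0.41, adjusted p = 0.000194) by share. Of 4 genes of antigen presentation and costimulation, these 2 were higher and none lower, a share near the 42.7% called over all genes.

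Of 6 measured T cell genes, 3 were higher in the foci by share (Cd8a, Cd4 and Ikzf2) and Cd3d, Il2ra and Foxp3 did not pass, with a median of 1.69 beside 42.7% called and a median of 0.77 over all genes. Ikzf2 did not pass per bin (0.10). Cd8a, the co-receptor of cytotoxic T cells, stood at 912, 2436, 2525 and 10848 CPM in the foci of CpG-STAT3ASO 1, CpG-STAT3ASO 2, combination 1 and combination 2, and at 508, 162, 640 and 593 in the comparison bins. Combination 2 stood far above the other sections. The log2 difference was 2.73 (SE 0.57, adjusted p = 0.00122), but 1.19 per bin (adjusted p = 0.222). In molecules, the foci of these sections held 70, 403, 128 and 4024 of Cd8a, and 95.3, 78.3, 83.6 and 51.9% of the foci held none. Only 10 foci of CpG-STAT3ASO 1 thus had any Cd8a molecule. Foci with 50 or more Mki67 plus Birc5 molecules had 2774, 1062 and 12281 CPM of Cd8a in CpG-STAT3ASO 2, combination 1 and combination 2. In CpG-STAT3ASO 1 the 54 such foci held 0 Cd8a molecules, which allows a share of up to 137 CPM (3 molecules, counting error only). The fitted difference for such bins rests on the pseudocount in that section and is not read here.

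Of 8 measured checkpoint genes, 5 were higher by share and none lower, with a median of 1.78 beside 42.7% called and a median of 0.77 over all genes. Pdcd1, which encodes PD-1 of activated and exhausted T cells, stood at 717, 1590, 1046 and 2025 CPM in the foci and at 274 to 436 in the comparison bins (log2 difference 1.84, SE 0.48, adjusted p = 0.00549), but 0.31 per bin (adjusted p = 0.722). Havcr2, the TIM-3 receptor of T cells and myeloid cells, differed by 2.27 (SE 0.40, adjusted p = 0.000316) and did not pass per bin. Cd274, which encodes the PD-1 ligand PD-L1, differed by 0.37 (adjusted p = 0.457), and by -1.17 per bin. Ctla4, another inhibitory receptor of T cells, differed by 1.71 by share, and its call was lost without CpG-STAT3ASO 2 (1.30), PBS 2 (1.54), anti-PD1 2 (1.22) or combination 1 (1.64). Of 7 cytotoxic and NK genes tested, Nkg7 and Fasl were higher by share and none lower, beside 42.7% called over all genes. Both Nkg7 and Fasl had the other sign per bin. The Nkg7 difference of 1.39 was lost without CpG-STAT3ASO 2 (1.06), PBS 1 (1.36), PBS 2 (1.42), anti-PD1 2 (1.24) or combination 2 (0.92).

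Within the same sections, the foci were next set against all tissue bins that were not chosen. By share, 47 of 97 genes passed, 34 higher and 13 lower (48.5%; limma with the section as block), and the median log2 difference of all genes was 0.42. Without CpG-STAT3ASO 2 the count was 31. Per bin, 77 genes were higher and none lower, and after median-of-ratios scaling 9 were higher and 17 lower. The 9 genes that were higher on all 3 scales were Rrm2, Cxcl10, Ifng, Nkg7, Gzmb, Pdcd1, Cd8a, Cd80 and Ptprc. None of the 13 genes with a lower share was lower on all 3 scales, and 7 had the other sign per bin.

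Rrm2 had the largest increase by share in this comparison. Its share was 22901, 21957, 32868 and 13913 CPM in the foci and 3647, 2973, 2660 and 3270 in the other bins of the same sections. In molecules per bin it was 12.7, 14.8, 23.2 and 6.91 times higher in the foci, and the log2 difference of shares was 2.81 (SE 0.22, adjusted p = 3.05e-06). The foci, 1.66 to 6.13% of the tissue bins, held 23.6, 35.4, 28.1 and 31.1% of the Rrm2 molecules of their sections. A proliferation gene that had no part in the rule was thus concentrated in the foci of all 4 sections.

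Of 7 cytotoxic and NK genes tested, Nkg7, Gzmb and Ifng were higher in the foci than in the other tissue bins. Prf1, Fasl, Klrb1c and Klrd1 did not pass, beside 48.5% called over all genes. Nkg7, a granule protein of cytotoxic cells, had 991, 2466, 1401 and 5109 CPM in the foci and 460, 828, 531 and 2184 in the other bins (log2 difference 1.33, SE 0.22, adjusted p = 0.000922). Gzmb, the granule protease granzyme B, differed by 1.25 (SE 0.25, adjusted p = 0.0027), and Ifng, the cytokine of activated T and NK cells, by 1.36 (SE 0.28, adjusted p = 0.00332). These are sparse genes: the foci held 9, 52, 9 and 344 Ifng molecules and 32, 96, 15 and 251 Gzmb molecules in all. Pdcd1 differed by 1.16 (SE 0.22, adjusted p = 0.00203), with a higher share in the foci of 4 of 4 sections.

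Cd8a had 912, 2436, 2525 and 10848 CPM in the foci and 685, 1006, 1016 and 4086 in the other bins, a difference of 1.10 (SE 0.31, adjusted p = 0.0136). This call was lost without CpG-STAT3ASO 2 (1.05) or combination 2 (1.0). Bins of 360 pixels and foci of 50 or more molecules gave values that depend on the pseudocount, since CpG-STAT3ASO 1 then held 0 Cd8a molecules. Cxcl10 had 21155, 39986, 20005 and 38861 CPM in the foci and 4971, 13887, 2593 and 24103 outside, a difference of 1.81 (SE 0.28, adjusted p = 0.000922). Ptprc, the leukocyte antigen CD45, differed by 0.85 (SE 0.18, adjusted p = 0.00386), and Cd80 by 1.10 (SE 0.2, adjusted p = 0.00185).

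Of 5 measured macrophage and monocyte genes, Cd68, Cd14 and Tgfbi were higher by share in the foci than in the other tissue bins. None was lower. The list had a median of 0.45, beside 48.5% called and a median of 0.42 over all genes. Cd68, Cd14 and Tgfbi did not pass after median-of-ratios scaling. Cd68 differed by 0.45 (SE 0.155, adjusted p = 0.0332), a call lost when any of the 4 sections was left out (0.35 to 0.51). The bins next to the foci had 27479, 14545, 42315 and 24908 CPM of Cd68, and the foci 26668, 13562, 38668 and 24168. Per bin, Cd68 was lower next to the foci, at 5.58, 5.11, 9.86 and 11.5 against 9.61, 7.38, 14 and 15.7. Adgre1 had 15759, 7319, 11048 and 7982 CPM in the foci and 11194, 5840, 8357 and 7015 in the other bins, higher in 4 of 4 sections, and its difference of 0.35 (SE 0.20) did not pass by share (adjusted p = 0.15). Csf1r (0.42, adjusted p = 0.0578) and Ccl5 (0.35, adjusted p = 0.11) did not pass by share either, and all 3 passed per bin at 1.26 to 1.33. Gpnmb was higher by share at 0.70 (SE 0.21, adjusted p = 0.0173), a call lost without CpG-STAT3ASO 1 (0.68) or combination 1 (0.49). Stat3 differed by -0.22 (adjusted p = 0.139) by share and by 0.69 per bin (adjusted p = 0.000751).

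Genes with a lower share in the foci than in the other tissue bins were Sirpa (-0.89), S1pr1 (-0.73), Cd4 (-1.34), Crbn (-1.08), Vegfa (-0.84) and Flt3 (-1.88), among others. Per bin, Sirpa (0.02), S1pr1 (0.18) and Vegfa (0.07) had the other sign, and none of these 6 passed. Sirpa molecules per focus were 35.2, 35.1, 31.7 and 31.9, which was 1.22, 0.872, 0.896 and 1.10 times the number per other bin.

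**Figure D4:**
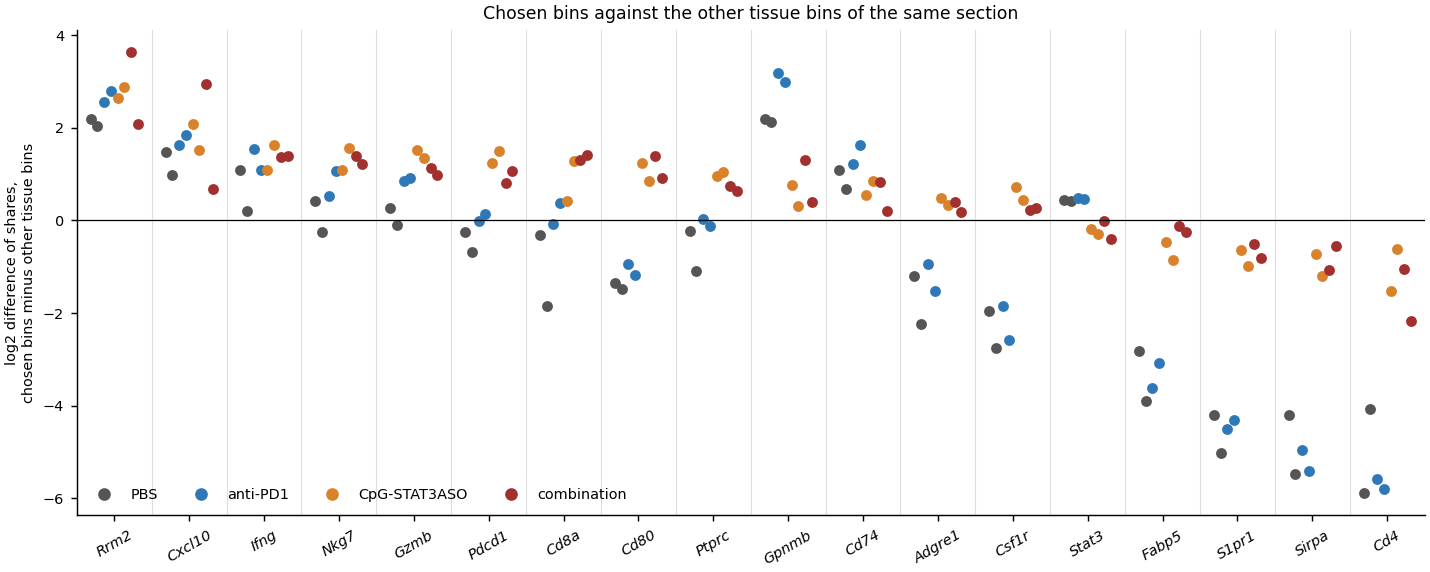
Log2 difference of each gene's share between chosen bins and the other tissue bins of the same section, with 1 point per section and colours for the 4 treatments. Rrm2 is higher in the chosen bins of all 8 sections, Sirpa, S1pr1 and Cd4 are far lower in PBS and anti-PD1 sections than in the others, and Adgre1, Csf1r and Cd80 are above 0 only in the sections with CpG-STAT3ASO.

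The same contrast was made in the sections without CpG-STAT3ASO, where 51 of 97 genes passed (52.6%; 21 higher, 30 lower; 84 and 7 per bin, 31 and 25 after median-of-ratios scaling), and the difference between both contrasts was tested in the same fit. It passed for 43 of 97 genes, 38 higher and 5 lower in the sections with CpG-STAT3ASO (44.3%). These tests use the same pooled values of chosen bins as the comparison above and are not independent of it. The split was 5 to 52 per bin and 16 to 19 after median-of-ratios scaling. Sirpa, S1pr1, Cd4, Fabp5 and Csf1r were higher on all 3 scales, and Gpnmb, Ly6a, Tert, Stat3 and Stat6 were lower on all 3. By share, the Tert call (-0.78) was lost when any section but PBS 2 or combination 1 was left out, at -0.68 to -0.76. The Stat6 call (-0.56) was lost when any section but PBS 1, PBS 2 or combination 2 was left out, at -0.50 to -0.55.

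The log2 difference of Sirpa between chosen and other bins was -0.73, -1.2, -1.07 and -0.56 in the 4 sections with CpG-STAT3ASO and -5.47 to -4.2 in the others, a difference of 4.12 (SE 0.28, adjusted p = 3.69e-07). Gpnmb was higher in chosen bins by 0.77, 0.31, 1.31 and 0.40 with CpG-STAT3ASO and by 2.13 to 3.18 without it, a difference of -1.92 (SE 0.30, adjusted p = 0.000298). Stat3 was higher in chosen bins by 0.41 to 0.48 in the sections without CpG-STAT3ASO and differed by -0.39 to -0.01 in the others (difference -0.67, SE 0.16, adjusted p = 0.00659). Rrm2 was enriched in the chosen bins of all 8 sections, and its difference of 0.42 did not pass by share (SE 0.31, adjusted p = 0.299). It was -1.34 per bin (adjusted p = 0.00602) and -0.26 after median-of-ratios scaling.

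The foci were not uniform. Isolated foci, with no chosen neighbour, had a higher Tmem119 share than foci in patches of 4 or more bins in 3 of 4 sections, as with 15792 and 5158 CPM in CpG-STAT3ASO 2. CpG-STAT3ASO 1 was the exception, at 21328 and 21715. Sirpa had 114357, 84651, 93614 and 51135 CPM in isolated foci and 83933, 43711, 24495 and 44469 in the larger patches. Its share was thus lower in the larger patches of all 4 sections. Per bin, combination 2 was the exception, at 30.5 in isolated foci and 32.6 in the larger patches. By share, Gpnmb was higher in the larger patches in 3 of 4 sections. It had 10065, 5336 and 6711 CPM in the isolated foci of CpG-STAT3ASO 1, CpG-STAT3ASO 2 and combination 2. Their larger patches had 61730, 7855 and 17671. These classes were cut from the rule's own bins and are described without a test, and the larger patches held 30, 72, 4 and 152 bins.

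The Cd8a share differed with patch size in combination 2. There it was 14562 CPM in isolated foci, 11636 in patches of 2 to 3 bins and 6025 in patches of 4 or more, or 8.69, 7.39 and 4.42 molecules per bin. In CpG-STAT3ASO 2 the shares were 2876, 2656 and 1738 CPM, but the molecules per bin were level at 1.33, 1.32 and 1.33. In CpG-STAT3ASO 1 the isolated foci had 868 CPM and patches of 2 to 3 bins 1274, and the 30 bins of larger patches held 0 molecules, which allows up to 366. The 4 such bins of combination 1 also held 0, which allows up to 1837 and so shows nothing. With patches of at least 4 bins alone in the comparison of foci with comparison bins, 18 genes passed in place of 41, while Adgre1 (4.17), Cd68 (3.33), Gpnmb (-2.74) and Sirpa (3.30) still passed.

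Foci with more Mki67 and Birc5 had more Rrm2 as a share in all 4 sections. Bins with 25 to 49 molecules had 21055, 21277, 21882 and 12263 CPM, and bins with 50 or more had 27507, 23241, 51447 and 17136. Tmem119 was lower in the richer bins of all 4 sections, with 20489, 13167, 14316 and 7252 CPM against 11294, 6438, 8760 and 5006. Adgre1 was likewise lower there by share, as with 17275 and 11977 in CpG-STAT3ASO 1. Per bin, Adgre1 was higher in the richer bins of CpG-STAT3ASO 2 (3.85 and 4.35) and combination 2 (5.14 and 5.26). It was lower per bin in those of CpG-STAT3ASO 1 (5.95 and 4.87) and combination 1 (4.49 and 3.17). Cxcl10 was higher, with 19959, 33510, 16356 and 36869 CPM in the poorer bins and 24137, 52205, 26175 and 42749 in the richer ones. In combination 1 the 40 bins with 50 to 99 molecules had only 7743, and most Cxcl10 of its richer bins lay in the 12 bins with 100 or more. Cxcl10 was also very uneven among foci: 57.3, 27.3, 62.9 and 11.5% of them held no Cxcl10 molecule, and the richest 10% held 57.7 to 84.3% of its molecules.

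The tissue next to the foci was compared with tissue far from them, taking bins 1 to 3 bins away and bins at least 10 bins away. Near tissue comprised 4690, 4498, 2966 and 6851 bins and far tissue 500, 1690, 3198 and 46 bins in CpG-STAT3ASO 1, CpG-STAT3ASO 2, combination 1 and combination 2. By share, 50 of 95 genes passed, 42 higher and 8 lower near the foci (52.6%), with a median log2 difference of 1.60 over all genes. The split was 50 to 6 per bin and 11 to 15 after median-of-ratios scaling. The count was 21 without CpG-STAT3ASO 1, 21 without CpG-STAT3ASO 2 and 26 without combination 1. The same contrast around the comparison bins of the sections without CpG-STAT3ASO gave 67 of 94 genes, 52 higher and 15 lower near them. The split there was 62 to 11 per bin and 28 to 28 after median-of-ratios scaling. The Mki67 and Birc5 molecules themselves fell off steeply, from 44.1 to 50.8 per bin in the foci to 3.38 to 4.74 in the next bin, as the rule requires.

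Cxcl10 had 7518, 19741, 5156 and 25719 CPM near the foci and 378, 584, 514 and 548 far from them (log2 difference 4.57, SE 0.41, adjusted p = 0.00229). Ccl5 had 30324, 27726, 20975 and 42782 near and 2102, 1436, 981 and 365 far, a difference of 4.85 (SE 0.54, adjusted p = 0.00348). Gpnmb differed by 4.02 (SE 0.39, adjusted p = 0.00265) and Adgre1 by 2.5 (SE 0.16, adjusted p = 0.000904). These genes, with Rrm2, Cd68, Cd74, Ptprc and Tgfbi, passed on all 3 scales and were higher near the foci in every section. Sirpa (-1.05), S1pr1 (-1.06), Crbn (-1.16), Cd47 (-0.96) and Vegfa (-1.21) were lower near the foci on all 3 scales. The S1pr1 call was lost without CpG-STAT3ASO 2 (-0.97), and the Cd47 call without CpG-STAT3ASO 1 (-1.06), CpG-STAT3ASO 2 (-1.04) or combination 1 (-0.97).

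Step by step, 2 patterns were seen by share. The Rrm2 share was 22901, 21957, 32868 and 13913 CPM in the foci and 6510, 5854, 7189 and 4423 in the bins next to them. By share, Gpnmb, Ccl5 and Adgre1 were about as high in the adjacent bins as in the foci and lower at 10 or more bins. Ccl5 in combination 1 had 16730 CPM in the foci, 20586 in the adjacent bins and 18169 at 4 to 6 bins. Per bin, all 3 genes were lower in the adjacent bins of all 4 sections, as with Adgre1 at 5.68 and 3.05 in CpG-STAT3ASO 1. In CpG-STAT3ASO 1, Gpnmb had 21233 CPM in the foci, 22322 in the adjacent bins, 11948 at 3 bins and 1724 at 10 or more. Adgre1 had 15759, 15030, 12398 and 2681 at these distances, and Ccl5 28923, 34376, 25281 and 2102. The Sirpa share was higher with distance in all 4 sections, in CpG-STAT3ASO 1 97784 CPM in the foci and 264933 at 10 or more bins. Per bin, Sirpa was lower next to the foci than in them in all 4 sections, as with 26.3 and 35.2 in CpG-STAT3ASO 1. At 10 or more bins it stood at 44.9, 56.8, 46.3 and 29.2 per bin. These values were above the foci except in combination 2, whose foci held 31.9. In every section without CpG-STAT3ASO, Sirpa was also higher, and Cxcl10, Gpnmb and Ccl5 lower, at 10 or more bins than next to the comparison bins. In PBS 1, Cxcl10 had 48667 CPM next to them and 1961 at 10 or more, and Gpnmb 112601 and 627. Adgre1 was lower at 10 or more bins in PBS 1 and anti-PD1 1 and higher in PBS 2 and anti-PD1 2.

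**Figure D5:**
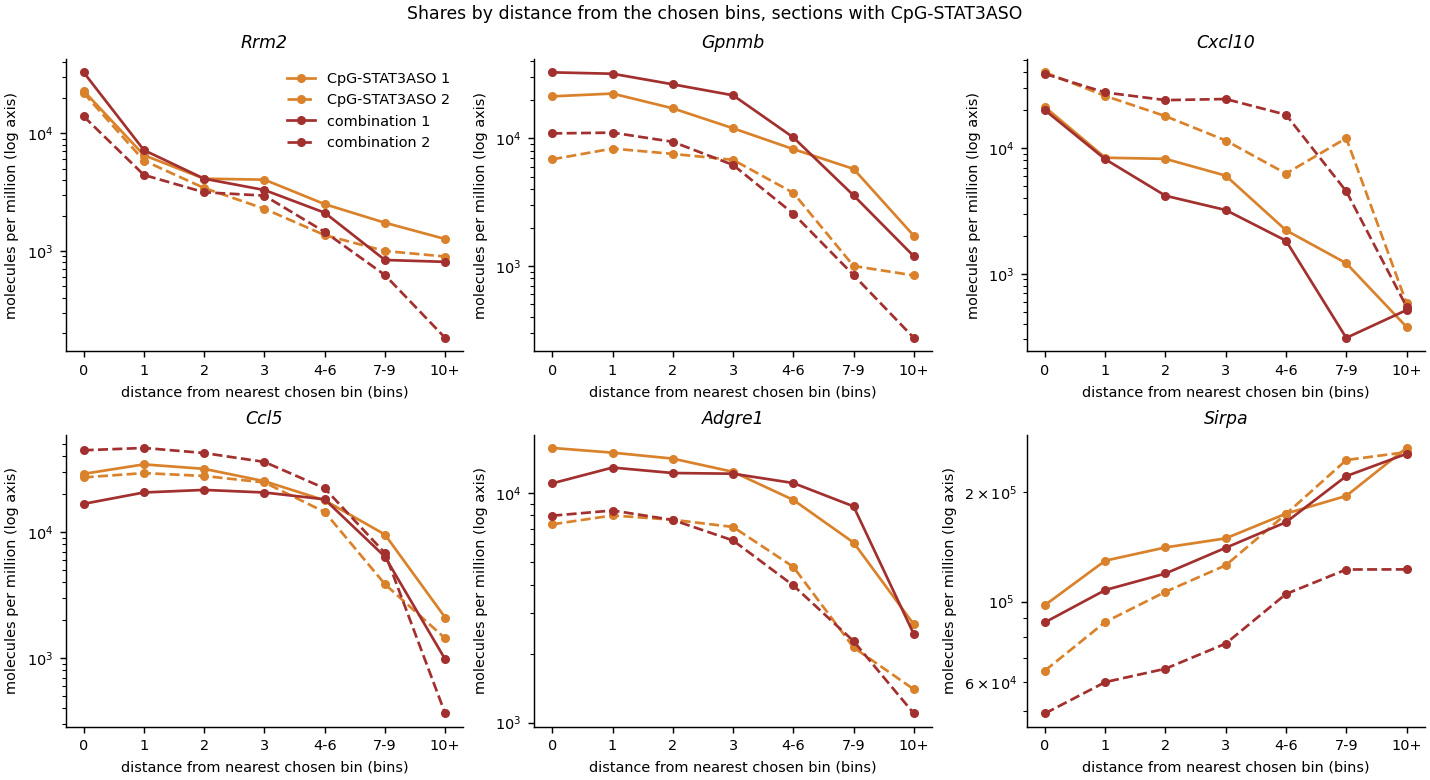
Share of 6 genes, in CPM on a log axis, by distance from the nearest chosen bin in the 4 sections with CpG-STAT3ASO, with the foci at distance 0. Rrm2 is lower in the adjacent bins than in the foci, Gpnmb, Ccl5 and Adgre1 are about level there and lower further out, and Sirpa is higher with distance; the last point of combination 2 rests on 46 bins.

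Adding anti-PD1 went with no called gene in the chosen bins. For the average effect of anti-PD1, 0 of 96 genes passed by limma (0%), 3 had an unadjusted p under 0.05, and limma's voom gave 0 calls with 4 such genes. For the combination against CpG-STAT3ASO, 0 of 96 passed (0%), with 8 at an unadjusted p under 0.05, and voom gave 0 calls with 9 such genes. Whether the effect of CpG-STAT3ASO differed with anti-PD1 was tested by the interaction, where 0 genes passed by limma and 6 had an unadjusted p under 0.05, and voom gave 0 calls with 8 such genes. Cd8a in the foci was 912 and 2436 CPM in the CpG-STAT3ASO sections and 2525 and 10848 in the combination sections, a log2 difference of 1.81 (SE 0.80, adjusted p = 0.477). Arg1, a suppressive enzyme of myeloid cells, had 1499 and 351 in the CpG-STAT3ASO sections and 2525 and 2472 in the combination sections (1.78, SE 0.69, adjusted p = 0.345). Without combination 2, 1 gene was lower for the anti-PD1 average, 3 were lower for the combination against CpG-STAT3ASO and 3 for the interaction, which also had 1 higher without CpG-STAT3ASO 1. With 2 sections a group, differences of this size were not separated from the spread between sections.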

How the data were processed

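The deposited file of each of the 8 sections lists the molecules the authors called, each with its position and target. Per the labels, they come from Resolve single-molecule in situ hybridization. The unit is thus the molecule, and other numbers in the deposited files are pixel positions. Seurat 4.2.0 is listed in the submitters' processing notes, with no role. No source used here gives the spot calling, registration or pixel size. Names starting with FP (28 targets) were read as false-positive codes and dropped, and they made up 0.0608 to 0.123% of the molecules in chosen bins. A gene was taken as above their level when it exceeded the 90th percentile of these codes.

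Molecules were counted in bins of 180 pixels. Chosen bins of a section held 50688 to 370941 molecules of the 98 other genes with CpG-STAT3ASO and 2737242 to 5443084 without it, so values of rare genes in the foci are the less precise ones. Pooled values were scaled to 1000000 and fitted as log2(value + 1) with limma 3.58.1 (R 4.3.3; lmFit, and eBayes with a trend), keeping genes whose mean reached 10 molecules per section. All p-values are two-sided and were adjusted by Benjamini-Hochberg over all genes tested. Contrasts between bins of 1 section used the section as block. Where a section holds 0 molecules of a gene, its log2 value depends on this pseudocount. Per-bin and median-of-ratios scales, other thresholds and left-out sections were alternatives. The fits were tested on simulated data in which only rare genes changed, so that the shares of the others hardly moved. Changes in abundant genes, which shift the shares of all others, were not simulated. Same-numbered sections correlated at -0.397 to 0.551 in their deviations, so the numbers were not taken to pair sections. Limits on a count of 0 use 3 molecules and cover counting error only.

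The members, lists and tests were chosen with earlier results of these data known. Of 117 listed genes, 74 are on the panel. The rule for named genes takes for each contrast the 12 largest called changes in either direction whose sections did not overlap (within a section: had 1 sign), a set list, and the 3 genes of each list with the highest share. Not all of these are printed, and a gene named outside the rule was chosen after its values were seen.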

Additional observations from a re-analysis of the deposited data

Results flagged for a closer look

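The contrast of chosen bins with the other bins of the same section differed between sections with and without CpG-STAT3ASO for 19 of the genes named here, by a direct test of that difference in the limma fit. Positive values mean that the share in chosen bins, relative to all other tissue bins of the section, was higher with CpG-STAT3ASO. The log2 differences were 4.12 for Sirpa, 4.0 for Cd4, 3.77 for S1pr1, 2.93 for Fabp5 and 2.70 for Csf1r, and these 5 passed on all 3 scales. They were 2.33 for Cd80, 1.95 for Cd86, 1.82 for Adgre1 and 1.78 for Cd68, which did not pass per bin. They were 1.69 for Tlr9, 1.57 for Cd8a, 1.51 for Ctla4, 1.35 for Pdcd1 and 0.89 for Nkg7, which had the other sign per bin. The lower genes were Gpnmb at -1.92, Ly6a at -1.0, Tert at -0.78, Stat3 at -0.67 and Stat6 at -0.56, and they passed on all 3 scales. Groups of 2 sections were not searched for outlying sections.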

How the results depend on the processing

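Limits: the foci hold few molecules of rare genes, 2 sections a treatment limit every test, and shares, values per bin and median-of-ratios values can differ in sign. For the foci against comparison bins, 41 genes passed, and 18 did with patches of at least 4 bins. The fit with the replicate number as block gave 40 calls (35 higher, 5 lower) and changed no named call. CpG-STAT3ASO against PBS gave 19 calls after median-of-ratios scaling and 16 per bin in place of 32, and the combination against anti-PD1 gave 12 with 25 to 49 molecules per bin in place of 27. Foci against other bins (47) gave 26 after median-of-ratios scaling, 77 per bin and 31 to 44 with a treated section left out, and the contrast without CpG-STAT3ASO (51) gave 91 per bin (84 higher, 7 lower). Near against far tissue (50) gave 26 after median-of-ratios scaling and 21 to 70 with a section left out. With a section left out, the anti-PD1 average gave 0 to 1, and the combination against CpG-STAT3ASO and the interaction 0 to 3 each. Molecules per chosen bin differed by -973 to -804 with a section left out, with p = 0.0571 in the exact permutation test, the smallest that 3 against 4 sections allow.

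Of 107 gene results, 1823 alternative values kept their direction and call, 181 lost the call, 23 gained it and 50 turned their sign. In foci against comparison bins, patches of at least 4 bins gave Il12b -1.58, Cd4 -0.18, Cd8a -2.86, Cd3d -1.75, Pdcd1 -1.40, Ctla4 -3.20 and Nkg7 -3.84, and each of these genes was at 0 molecules in combination 1, and all but Cd4 and Pdcd1 also in CpG-STAT3ASO 1, so these values depend on the pseudocount. Bins of 360 pixels gave Cd8a -0.01. Cd274 was -0.78 after median-of-ratios scaling and -1.17 per bin, Rrm2 -0.16 and -0.55, and Nkg7 -0.15 per bin. Tmem119 was 0.65 with 25 to 49 molecules, 0.06 with a threshold of 15 and -0.54 to 0.49 with a section left out. In foci against other bins, bins of 360 pixels gave Cd8a -1.72, Il10 -0.73 and Csf1r -0.07, and a threshold of 50 gave Cd8a -1.66. In these settings CpG-STAT3ASO 1 held 0 molecules of Cd8a, and of Il10 with 360 pixels, so those values depend on the pseudocount too. Values per bin were Stat3 0.69, Sirpa 0.02, S1pr1 0.18 and Vegfa 0.07. For the difference between section sets, values per bin were Pdcd1 -0.40, Ctla4 -0.25, Cd8a -0.19, Nkg7 -0.87, Tlr9 -0.07, Rrm2 -1.34, Cxcl10 -1.43, Gzmb -0.99 and Ifng -1.37. Median-of-ratios scaling gave Rrm2 -0.26, Cxcl10 -0.35 and Ifng -0.31, a threshold of 15 gave Cxcl10 -0.29 and Ifng -0.18, and Cd8a, again at 0 molecules in CpG-STAT3ASO 1, was -1.28 with 360 pixels and -1.08 with a threshold of 50. Cxcl10 was -0.05 to 0.70 with a section left out. In near against far tissue, Csf1r was -0.41 after median-of-ratios scaling. Stat3 was -0.05 with 360 pixels, -0.96 after median-of-ratios scaling, -0.10 with near as 1 bin and far as 4 or more, -0.12 with a threshold of 50 and -0.03 to 0.27 with a section left out. For values that moved by a scale, a threshold or a section, the cause was not tested.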
